A study of Homo sapiens with 6 samples.

Results

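The expression of 10 genes that mark the epithelial and the mesenchymal state of a cell was compared between a prostate cancer cell line and its cabazitaxel (CBZ) resistant subclone. The genes were taken by symbol from the deposited table of 58735 genes. They are the epithelial markers and regulators EPCAM, ESRP1, ESRP2 and OVOL1 (4 genes) and the mesenchymal markers and drivers VIM, FN1, ZEB1, ZEB2, SNAI2 and TWIST1 (6 genes). All 10 were found, and 7 of them had enough reads to be tested, while ZEB1, ZEB2 and TWIST1 (3 genes) did not. RNAseq was performed on C4-2B, a long-established line of prostate cancer that grows despite castration, and on RC4-2B, which was derived from C4-2B by repeated 72 h pulses of the taxane CBZ raised from 0.1 to 20 nM over 4 months. Each group holds 3 libraries that the labels call biological replicates, 6 in all, and no drug is named for the cells at harvest. RC4-2B is a single subclone of a single parental line, so its libraries are repeats of that line and not of independent selections. The labels name fetal bovine serum for both groups, and the study's methods name charcoal-stripped serum as well.

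In the epithelial-mesenchymal transition a cell gives up the adhesion and splicing program of an epithelium and takes on intermediate filaments and matrix of a mesenchymal cell. ZEB1, ZEB2, SNAI2 and TWIST1 are transcription factors that repress epithelial genes during the transition, and vimentin (VIM) and fibronectin (FN1) are among its best known products. On the epithelial side, OVOL1 is a repressor of ZEB1, ESRP1 and ESRP2 keep the epithelial forms of many spliced transcripts, and EPCAM is a surface adhesion protein of simple epithelia such as the luminal layer of the prostate.

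Sequences are shown for the FN1 and VIM promoters, since, among the 10 markers, FN1 had the largest fitted decrease and VIM the largest fitted increase, the latter short of the test's threshold. The stretches are those of RefSeq (GRCh38.p14) that lie before both the RefSeq start and the start of the gene in the deposited table, 146 bases at chr2:215436173-215436318 on the minus strand for FN1 and 250 bases at chr10:17227991-17228240 on the plus strand for VIM. Capitals mark letter matches to a cyclic AMP response element (TGACGTCA) and to GC boxes (GGGCGG), both searched on either strand.
FN1 promoter: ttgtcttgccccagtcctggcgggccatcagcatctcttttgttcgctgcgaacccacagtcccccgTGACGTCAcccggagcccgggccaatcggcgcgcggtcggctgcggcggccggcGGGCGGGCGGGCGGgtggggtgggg
VIM promoter: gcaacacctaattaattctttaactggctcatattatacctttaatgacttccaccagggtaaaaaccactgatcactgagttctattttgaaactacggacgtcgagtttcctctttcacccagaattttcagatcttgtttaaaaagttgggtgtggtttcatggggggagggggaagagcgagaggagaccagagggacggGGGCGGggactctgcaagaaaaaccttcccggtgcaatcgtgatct
The FN1 stretch held 1 cyclic AMP response element, 183 bases before the RefSeq start, and 3 GC boxes that overlap each other by 2 letters. Of 35116 promoter windows of 300 bases in the same table, 1.85% held the first motif and 45% held a GC box. These windows are longer than the stretches printed, and the full window of FN1 held 6 GC boxes and that of VIM 1. The VIM stretch held 1 GC box, 46 bases before the start. The E2 box CACCTG, the letters bound by the ZEB and SNAI factors, was searched on both strands and was found in 20.6% of all windows. It was in 0 of the windows of FN1, VIM and ZEB2 and in 2 of the 7 windows of ZEB1. Windows were found for these 4 genes and not for EPCAM, ESRP1, ESRP2, OVOL1, SNAI2 and TWIST1. The matches are a description of the letters and not of bound sites.

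The mature miRNAs of the miR-200 family repress ZEB1 and ZEB2 and are lost in many mesenchymal cells. Their sequences are shown because the reads on their loci are described further on, with the seed, bases 2 to 8, in capitals.
hsa-miR-200b-3p: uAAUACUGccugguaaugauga
hsa-miR-200c-3p: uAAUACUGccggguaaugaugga
hsa-miR-429: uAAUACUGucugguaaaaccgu
hsa-miR-200a-3p: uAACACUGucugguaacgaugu
hsa-miR-141-3p: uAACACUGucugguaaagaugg
The first 3 share the seed AAUACUG and the last 2 share the seed AACACUG. Those of miR-200b, miR-200a and miR-429 lie on chromosome 1, and those of miR-200c and miR-141 on chromosome 12.

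The libraries held 15707134 to 18052517 counts on genes, at which 3 counts, taken as the floor of detection, correspond to 0.170 to 0.188 CPM (counts brought to a common library total by TMM scaling). The floor covers counting error only, while the 95% intervals given below for fold changes also include the spread between libraries. RC4-2B replicate 2 stood apart. Its log2 CPM differed from those of RC4-2B replicates 1 and 3 with an SD of 0.63 and 0.55 across well-expressed genes, against 0.24 between replicates 1 and 3 and 0.17 to 0.22 between C4-2B replicates. Genes of high GC content were lower in it than in replicates 1 and 3, with Spearman correlations between its log2 difference and transcript GC content of -0.75 and -0.67 across genes, which share libraries and are not replicates. The values without this library and with a GC correction are given below beside each tested marker. Of the luminal keratins, KRT8 was at 335 to 369 CPM for C4-2B and 292 to 368 CPM in RC4-2B, and KRT18 at 241 to 261 and 222 to 252 CPM, so both cell lines expressed them. The summed level of 8 luminal markers was 3740 to 3840 CPM for C4-2B and 2620 to 3230 CPM in RC4-2B. KLK3 and TMPRSS2 (2 of 8) fell, with log2 fold changes of -4.33 and -1.08, where 0.903% of all tested genes were lower. TMPRSS2 was not called without C4-2B replicate 1, 2 or 3 or RC4-2B replicate 3 (adjusted p 0.054 to 0.12, edgeR). KLK2 was also lower with DESeq2 (-0.85, adjusted p = 0.022). In edgeR's test it was lower without RC4-2B replicate 2 (-0.56, 0.00045) and with the GC correction (-0.83, 0.041). Of all genes, 2.64%, 6.02% and 3.25% were lower in these fits. Of 12 markers of leukocytes, endothelium and fibroblasts, 8 were at or under 3 counts in every library, PECAM1, DCN and LUM were at 0 throughout and PTPRC reached 3 counts in 1 C4-2B library. Their summed level was 32.1 to 36.2 CPM for C4-2B and 31 to 46.3 CPM in RC4-2B, nearly all of it from COL1A1, VWF, PDGFRB and COL3A1. Of these 4, the only ones tested, 0 passed the threshold. In alternatives VWF was lower, with DESeq2 (-0.85, adjusted p = 0.016) and without RC4-2B replicate 2 (-0.82, 0.013 from edgeR's test). COL1A1 and COL3A1 were higher in alternatives that are given further on.

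Of the 7 tested markers, 1 changed between the cell lines. FN1 fell in RC4-2B, and 0 markers rose, with the threshold set at an adjusted p under 0.05 (edgeR's quasi-likelihood test, adjusted by Benjamini-Hochberg). Over all 15054 genes tested, 1.98% passed in either direction, 1.08% as higher and 0.903% as lower. At an unadjusted p under 0.05, 1 marker (VIM) was higher and 2 (FN1 and SNAI2) were lower, where 12% and 9.42% of all tested genes were. DESeq2 gave the same counts of 1 and 2, against 5.74% and 5.76% of the 29108 genes with a p-value. The groups of 3 libraries did not overlap for these 3 of 7 markers, and they did not overlap for 34.1% of all tested genes, 17% higher and 17.1% lower. In bulk RNA such as this, fewer cells that express a gene and less RNA per cell cannot be told apart.

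**Figure D1:**
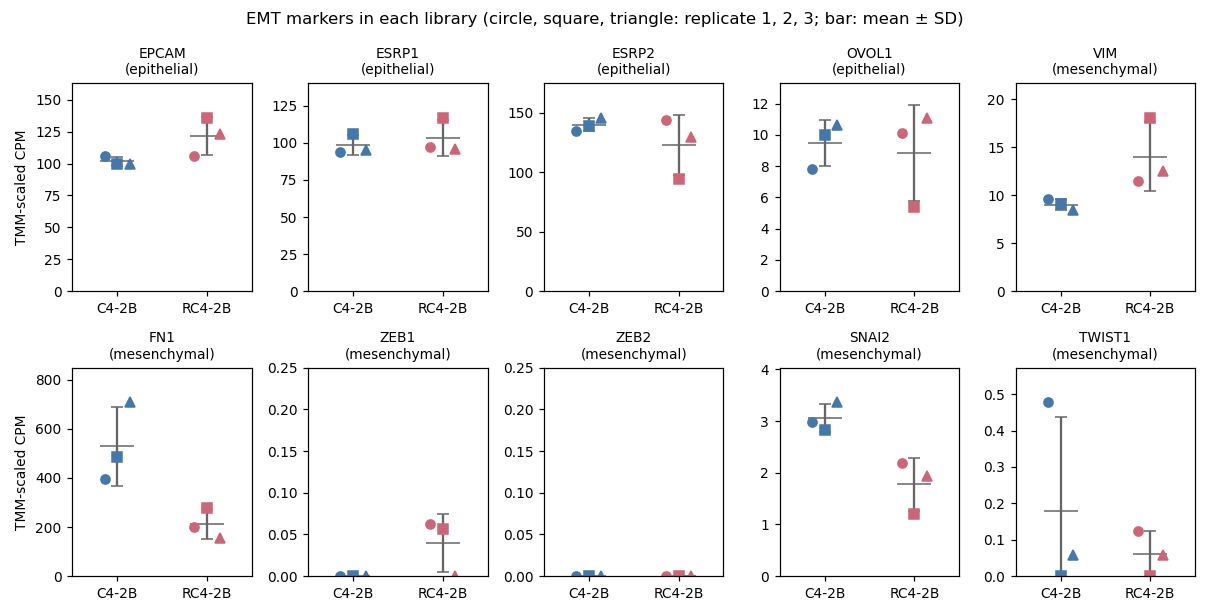
TMM-scaled CPM of the 10 markers in each library, with its own axis from 0 for each gene, C4-2B in blue and RC4-2B in red, and the mean ± SD of 3 libraries as bars. FN1 ranged from 395 to 707 CPM in C4-2B and from 156 to 277 CPM in RC4-2B, while the epithelial markers overlapped and ZEB1 and ZEB2 stayed at or next to 0.

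FN1 (ENSG00000115414, minus strand of chr2:215360440-215436172) encodes fibronectin, a matrix glycoprotein that integrins bind. In the order of the replicates, C4-2B held 6625, 8592 and 12412 counts of it against 3180, 4856 and 2659 for RC4-2B. Every RC4-2B library was below every C4-2B library, and the highest, RC4-2B replicate 2, was at 277 CPM against 395 CPM in the lowest C4-2B library. The mean was 529 ± 160 CPM (SD, n = 3) for C4-2B against 211 ± 61.2 CPM for RC4-2B. The log2 fold change was -1.33 (SE 0.26, 95% interval -1.92 to -0.74), so FN1 was 2.51-fold lower, with an adjusted p of 0.041 in edgeR's quasi-likelihood test and a rank of 260 by p among the tested genes. The exact two-sided permutation test on the 6 values gave p = 0.1, the smallest that 3 libraries against 3 allow.

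The direction of the FN1 difference was the same in all 19 alternatives, from -1.58 to -1.07 on the log2 scale, and the adjusted p was under 0.05 in 10 of them. C4-2B replicate 3, with the most FN1, moved the estimate most, and without it the log2 fold change was -1.07 (adjusted p = 0.15 from edgeR's test). The call was also lost without C4-2B replicate 1 (-1.50, adjusted p = 0.10) or 2 (-1.39, 0.13) and without RC4-2B replicate 1 (-1.29, 0.062) or 3 (-1.15, 0.13). It was kept without RC4-2B replicate 2 (-1.58, adjusted p = 6e-05) and with the GC correction (-1.48, 0.0023). DESeq2, the tool the study used, gave -1.34 with an adjusted p of 2.3e-05. Of all tested genes, 12.5% passed without RC4-2B replicate 2 (6.5% higher and 6.02% lower), 7.62% with the GC correction (4.36% and 3.25%) and 5.93% with DESeq2 (3.28% and 2.64%), and in each of these fits FN1 was the only marker called.

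VIM (ENSG00000026025, plus strand of chr10:17228259-17237593) encodes vimentin, the intermediate filament of mesenchymal cells. It held 161, 160 and 148 counts in the C4-2B libraries against 184, 318 and 213 in those of RC4-2B. All RC4-2B libraries were above all C4-2B libraries, at 11.5 to 18.1 CPM against 8.43 to 9.61 CPM, and RC4-2B replicate 2 was the highest. The log2 fold change was 0.64 (SE 0.20, 95% interval 0.18 to 1.10), and VIM did not pass the threshold (edgeR's quasi-likelihood test, adjusted p = 0.14). Without RC4-2B replicate 2 it was 0.41 and with the GC correction 0.55, and over the 19 alternatives it lay between 0.41 and 0.77 with adjusted p-values of 0.071 to 0.39. The antisense gene VIM-AS1 shares 1727 bases of its span with VIM and held 29, 20 and 24 counts in C4-2B against 22, 27 and 16 in RC4-2B, so reads assigned to it were few beside those of VIM.

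SNAI2 (ENSG00000019549, minus strand of chr8:48917604-48921740) encodes Slug, a zinc finger repressor of E-cadherin. It held 50, 50 and 59 counts in the C4-2B libraries and 35, 21 and 33 counts in the RC4-2B libraries. The groups did not overlap, at 2.83 to 3.36 CPM for C4-2B and 1.2 to 2.19 CPM in RC4-2B, where replicate 2 was the lowest. The log2 fold change was -0.79 (SE 0.28, 95% interval -1.42 to -0.15), which did not pass the threshold (edgeR's quasi-likelihood test, adjusted p = 0.17). The alternatives ranged from -0.96 to -0.30 with adjusted p-values of 0.085 to 0.45, and the value was -0.57 without RC4-2B replicate 2 and -0.92 with the GC correction.

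The other EMT drivers among the markers were close to or under the floor. ZEB1 (chr10:31318495-31529814) had 0, 0 and 0 counts in C4-2B against 1, 1 and 0 counts in RC4-2B, and ZEB2 (chr2:144364364-144524583) had 0 counts in all 6 libraries. Neither gene was counted above the floor in any library, and a difference below the floor was not detectable at this depth. TWIST1 (chr7:19020991-19117672), a helix-loop-helix factor, had 8, 0 and 1 counts in C4-2B against 2, 0 and 1 in RC4-2B. Only C4-2B replicate 1 was above the floor, at 0.477 CPM, and the groups overlapped (exact two-sided permutation p = 0.9). ZEB1-AS1, which shares 1953 bases of its span with ZEB1 on the opposite strand, held 104, 111 and 115 counts in C4-2B against 89, 175 and 109 in RC4-2B. The locus therefore gave reads that were counted on the antisense gene and almost none that were counted on ZEB1, and how the counting treated strand is not given in the sources used here.

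The epithelial markers were all expressed in both cell lines, and none of the 4 passed the threshold. EPCAM (ENSG00000119888, plus strand of chr2:47345158-47387601) held 1784, 1765 and 1754 counts in C4-2B against 1699, 2377 and 2090 in RC4-2B. RC4-2B replicate 1 lay at the level of C4-2B, at 106 CPM, while replicates 2 and 3 were above it at 136 and 123 CPM. The log2 fold change was 0.25 (SE 0.12, 95% interval -0.02 to 0.53, adjusted p = 0.26 by edgeR's quasi-likelihood test), and it was 0.17 without RC4-2B replicate 2 and 0.13 with the GC correction. The interval leaves room for a level between 0.983 and 1.44 times that of C4-2B.

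ESRP1 and ESRP2 encode paralogous RNA-binding proteins that act on the same epithelial splicing events. ESRP1 (plus strand of chr8:94641074-94707466) was at 94.0, 106 and 95.4 CPM in C4-2B and at 96.9, 117 and 95.6 CPM in RC4-2B. The groups overlapped, and the log2 fold change of 0.07 (SE 0.12, 95% interval -0.22 to 0.35) became -0.04 without RC4-2B replicate 2 and -0.07 with the GC correction. ESRP2 (minus strand of chr16:68229111-68238102) was at 135, 139 and 146 CPM in C4-2B and at 144, 94.6 and 130 CPM in RC4-2B. Replicate 2 alone was far below the others, and the log2 fold change of -0.19 (SE 0.16, 95% interval -0.55 to 0.17) was -0.03 without it and -0.01 with the GC correction. NFATC3 shares 149 bases of its span with ESRP2 on the opposite strand.

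Per length, ESRP2 was expressed above ESRP1 in every C4-2B library and in RC4-2B replicates 1 and 3. The ratio of ESRP2 to ESRP1 FPKM was 1.26, 1.15 and 1.34 in C4-2B against 1.30, 0.707 and 1.19 in RC4-2B, and it fell below 1 only in RC4-2B replicate 2. Their summed level was 40.7 ± 1.51 FPKM (SD, n = 3) in C4-2B and 39.4 ± 1.32 FPKM in RC4-2B. The groups overlapped for the ratio and the exact two-sided permutation p was 0.6 for it and 0.2 for the sum.

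OVOL1 (plus strand of chr11:65787022-65797219), a zinc finger repressor that holds back mesenchymal genes, was the least expressed epithelial marker. It held 131, 177 and 187 counts in C4-2B against 161, 94 and 189 in RC4-2B, where replicate 2 was again the lowest. The log2 fold change of -0.10 (SE 0.27, 95% interval -0.73 to 0.52) was 0.16 without RC4-2B replicate 2 and 0.08 with the GC correction. Its interval is the widest of the epithelial markers. OVOL1-AS1, on the opposite strand, held at most 12 counts in a library.

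**Figure D2:**
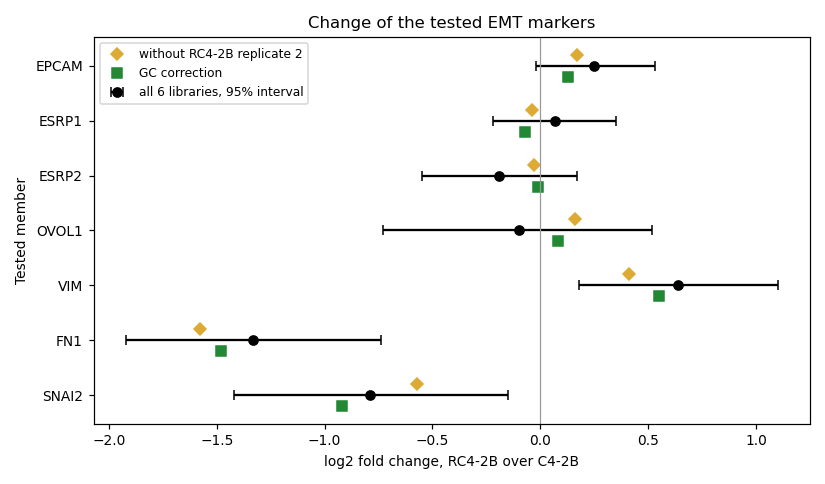
Log2 fold change of RC4-2B over C4-2B for the 7 tested markers (black points with 95% intervals from edgeR), without RC4-2B replicate 2 (yellow diamonds) and with the GC correction (green squares). FN1 at -1.33 is the only marker with an adjusted p under 0.05 over all 6 libraries, and ESRP1 and OVOL1 cross 0 when RC4-2B replicate 2 is left out.

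RC4-2B replicate 2 weighed on most of the markers. Relative to the mean of RC4-2B replicates 1 and 3 its log2 CPM was higher for FN1 (0.65), VIM (0.59), ESRP1 (0.29) and EPCAM (0.25), and lower for OVOL1 (-0.97), SNAI2 (-0.73) and ESRP2 (-0.53). The longest transcripts of the first 4 genes have a GC content of 42.2% (FN1), 46.9% (VIM), 42.6% (ESRP1) and 44.3% (EPCAM), and those of OVOL1 and ESRP2 have 58.2% and 57.7%. SNAI2, at 41.4% and with few counts, was lower where the other genes of low GC content were higher. The part of GC content in the values of single markers was not tested.

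**Figure D3:**
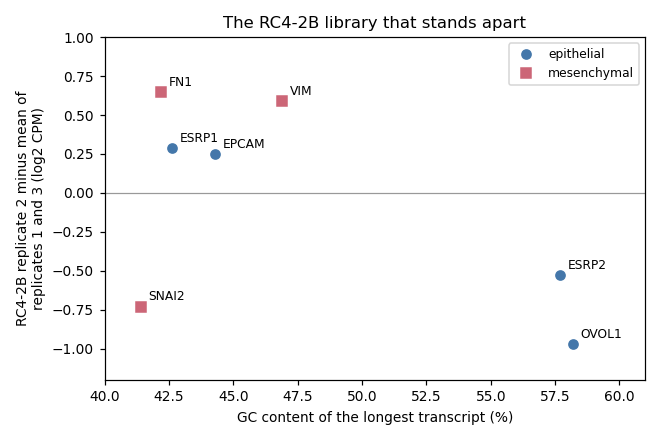
Difference in log2 CPM between RC4-2B replicate 2 and the mean of RC4-2B replicates 1 and 3, plotted against the GC content of the longest transcript for the 7 tested markers, epithelial as circles and mesenchymal as squares. The markers above 0 have a GC content of 42.2% to 46.9%, OVOL1 and ESRP2 lie below 0 at 58.2% and 57.7%, and SNAI2 lies below 0 at 41.4%.

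Ordered by FPKM, which divides counts by gene length and depth, EPCAM stood first in both cell lines, at 36.3 ± 1.31 FPKM (SD, n = 3) in C4-2B and 44 ± 6.3 FPKM in RC4-2B. In C4-2B it was followed by FN1 (27.4 ± 8.45), ESRP2 (22.5 ± 1.01), ESRP1 (18.1 ± 1.18), OVOL1 (2.21 ± 0.352), VIM (1.57 ± 0.0964) and SNAI2 (0.808 ± 0.0769). The libraries of EPCAM and FN1 and those of FN1 and ESRP2 overlapped in this order, and those of the other neighbours down to SNAI2 and TWIST1 did not. In RC4-2B the order was EPCAM, ESRP2 (20.0 ± 3.71 FPKM), ESRP1 (19.3 ± 2.75), FN1 (11.1 ± 3.48), VIM (2.49 ± 0.697), OVOL1 (2.08 ± 0.689) and SNAI2 (0.475 ± 0.129), with ESRP2 and ESRP1 overlapping, and VIM and OVOL1 too. FN1 thus moved from the second to the fourth place, below both ESRP genes. Among all tested genes, EPCAM was above 92% of genes in C4-2B and 93.9% in RC4-2B by FPKM, FN1 above 88.9% and 73.4%, and VIM above 30.7% and 38.9%.

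The ratio of FN1 to VIM FPKM was 12.3, 16.0 and 25.0 in C4-2B against 5.15, 4.55 and 3.72 in RC4-2B. Means were 17.7 ± 6.54 and 4.47 ± 0.718 (SD, n = 3). This ratio was taken up with the values of both genes known and is given without a test, since the groups were already apart for each gene. The mean log2 CPM of the 4 epithelial markers was 5.92 ± 0.07 in C4-2B and 5.90 ± 0.14 in RC4-2B, and that of the 6 mesenchymal markers was 0.92 ± 0.18 and 0.67 ± 0.12. The latter includes ZEB1, ZEB2 and TWIST1 near the floor, where the added prior count of 2 sets the value.

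The patterns most like FN1 over the 6 libraries, by the root mean square difference of centred log2 CPM, were those of RTN2 (0.13), CLUL1 (0.18) and ELOVL2 (0.19). RTN2 had a log2 fold change of -1.45, CLUL1 of -1.18 and ELOVL2 of -1.30, and of these 3 genes ELOVL2 passed the threshold (edgeR's quasi-likelihood test, adjusted p = 0.039), though in 1 only of the 6 fits that left out a library, the one without RC4-2B replicate 2. The choice by likeness to FN1 sets the direction of these values. For EPCAM the closest were DYNC1LI1 (0.021), FAM192A (0.025) and DNAJA1 (0.03), with log2 fold changes of 0.27, 0.28 and 0.23, none past the threshold.

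The genes around FN1 did not pass the test. Within 1 Mb of its start 10 genes were tested, 0 were called, and their median log2 fold change was 0.12, from -0.31 (MREG) to 0.75 (ABCA12). Around the other markers, 1 gene was called, CDH3, which lies within 1 Mb of ESRP2 and encodes P-cadherin. Over all tested genes, 1.98% were called. CDH3 rose with a log2 fold change of 0.87 (SE 0.14, adjusted p = 0.02 by edgeR's quasi-likelihood test), among 46 tested neighbours with a median of -0.04. Its call was lost without C4-2B replicate 1, 2 or 3 (adjusted p of 0.12 to 0.15 in edgeR's test) and without RC4-2B replicate 3 (0.094). It was also lost in the 3 limma fits on FPKM (adjusted p of 0.051 to 0.12), and CDH3 passed in 11 of 19 alternatives. CDH3 is named because it was the only call, after its value was seen.

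**Figure D4:**
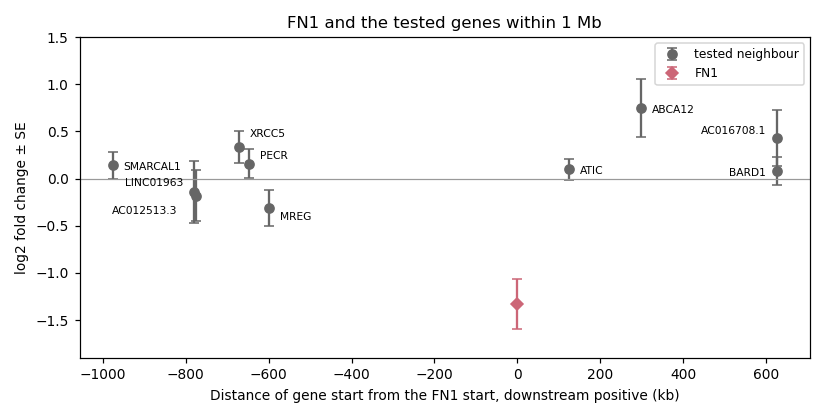
Log2 fold change ± SE of FN1 (red diamond) and of the 10 tested genes that start within 1 Mb of it (grey), by distance of the gene starts in kb along the direction of FN1 transcription. FN1 lies at -1.33 and its neighbours between -0.31 and 0.75.

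The wider set of genes tied to the transition was described in 11 lists of 144 other genes, of which 103 were tested. RAB25 and NES (2 genes) fell and 0 genes rose at an adjusted p under 0.05, while 0.903% and 1.08% of all tested genes did so. RAB25, a small GTPase of epithelial vesicle recycling, held 927, 845 and 888 counts in C4-2B against 441, 457 and 554 in RC4-2B. Every RC4-2B library was lower, with a log2 fold change of -0.83 (SE 0.13, adjusted p = 0.021 by edgeR's quasi-likelihood test). NES encodes nestin, an intermediate filament that assembles with vimentin, and held 268, 233 and 271 counts in C4-2B against 101, 93 and 61 in RC4-2B. It fell by 1.55 on the log2 scale (SE 0.22, adjusted p = 0.015), with no overlap of the groups. Both calls were lost without any 1 of the C4-2B libraries, with adjusted p-values of 0.10 to 0.15 for RAB25 and 0.057 to 0.11 for NES from edgeR's test, and that of RAB25 also without RC4-2B replicate 3 (0.055).

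Junction and polarity genes were tested in full, 25 of 25, and 0 passed, with a median log2 fold change of 0.01 against 0.0063 over all tested genes. It was 0.01 without RC4-2B replicate 2 and 0.04 with the GC correction. CDH1, which encodes E-cadherin, had 11137, 12438 and 12490 counts in C4-2B against 13601, 21391 and 16956 in RC4-2B, so all RC4-2B libraries were above all C4-2B libraries. Its log2 fold change was 0.56 (SE 0.14, 95% interval 0.25 to 0.87), short of the threshold in edgeR's quasi-likelihood test (adjusted p = 0.077). It passed in 6 of 19 alternatives, among them DESeq2 (adjusted p = 0.026), the GC correction (0.034) and the fit without RC4-2B replicate 2 (0.0044). In that last fit 5 genes of the list were higher (CDH1, CGN, JUP, LLGL2 and TJP3) and 3 were lower (DSC2, PPL and SCRIB), where 6.5% and 6.02% of all genes were called. With the GC correction the same 5 genes were higher and DSC2 (1 gene) was lower, where 4.36% and 3.25% of all genes were called.

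Of the epithelial transcription factors 8 of 8 were tested and 0 passed, with a median of -0.04, which was 0.05 both without RC4-2B replicate 2 and with the GC correction. GRHL2, an activator of epithelial genes, had a log2 fold change of 0.17 (SE 0.10, adjusted p = 0.31 by edgeR's quasi-likelihood test), and OVOL2, the paralog of OVOL1, of -0.04 (SE 0.16). EHF (1 gene) was lower both without RC4-2B replicate 2 (-0.51, adjusted p = 0.0048 from edgeR's test) and with the GC correction (-0.61, 0.0073). In these fits 6.02% and 3.25% of all genes were lower. Among 16 other epithelial genes, all tested, RAB25 was the only call, where 1.98% of all tested genes were called. Their median was -0.08, or -0.05 without RC4-2B replicate 2 and 0.10 with the GC correction. Without RC4-2B replicate 2, EPN3 (0.36, adjusted p = 0.012 from edgeR's test) and CD24 (0.78, 0.048) were higher and RAB25 was lower. With the GC correction EPN3 (0.41, 0.03) was higher and RAB25 was lower. Of all genes, 6.5% and 4.36% were higher in these fits, and 6.02% and 3.25% were lower.

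Of 12 other EMT transcription factors 6 were tested, 0 passed and 4 were at or under 3 counts in every library. Their median was -0.23, and it was -0.09 without RC4-2B replicate 2 and -0.03 with the GC correction. SNAI1, which encodes Snail, had 86, 105 and 90 counts in C4-2B against 110, 80 and 132 in RC4-2B, with overlapping groups and a log2 fold change of 0.24 (SE 0.23). Of 34 other mesenchymal genes 17 were at or under 3 counts in every library and 9 had no counts at all. CDH2, which encodes N-cadherin, had 2 counts in 1 C4-2B library and 0 in the other libraries. The 14 tested genes had a median of 0.17 and spread in both directions, from -1.57 (ACTA2, adjusted p = 0.073 from edgeR's test) to 1.69 (COL3A1, 0.051). Their median was 0.36 without RC4-2B replicate 2 and 0.30 with the GC correction. The genes at both ends had few reads. ACTA2 held 25, 58 and 46 counts in C4-2B against 11, 18 and 13 in RC4-2B, and COL3A1 held 7, 13 and 10 against 23, 34 and 38. Without RC4-2B replicate 2, 4 of the 14 genes were higher (COL1A1, COL3A1, FBN1 and S100A4) and 3 were lower (ACTA2, FSTL1 and LOX), where 6.5% and 6.02% of all genes were called. With the GC correction 4 were higher (COL1A1, COL3A1, COL5A2 and FBN1) and the same 3 were lower, against 4.36% and 3.25% of all genes. With DESeq2, 2 were higher (COL3A1 and FBN1) and 1 was lower (ACTA2), against 3.28% and 2.64%. COL1A1 and COL3A1 stand also among the fibroblast markers above.

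Among the partners of the markers NES, described above, was the only call (1 gene), where 1.98% of all tested genes were called. Without RC4-2B replicate 2, EXOC7 (0.35, adjusted p = 0.025 from edgeR's test) and TSPAN8 (1.68, 0.031) were higher. HNRNPM (-0.33, 0.019) and NES were lower in that fit. With the GC correction EXOC7 (0.67, 0.048) was higher and NES was lower. Of all genes, 6.5% and 4.36% were higher in these fits, and 6.02% and 3.25% were lower. The 8 splicing regulators that act beside the ESRP proteins had a median log2 fold change of 0.12, which was -0.04 without RC4-2B replicate 2 and 0.03 with the GC correction. The 7 tested transcripts that the ESRP proteins splice had a median of 0.14, and 0.10 and -0.02 in these fits, while CD44 was at 0 in every library. Counts per gene do not show which exons were used, so ESRP activity was not measured. For EPCAM, 8 of 9 genes of its cleavage and partners were tested, with a median of 0.02 (0.07 without RC4-2B replicate 2 and -0.06 with the GC correction). Of 9 fibronectin receptors and cross-linking genes 5 were tested, with a median of -0.03 (0.03 and -0.07 in the same fits), and ITGB1, ITGA5 and ITGAV had log2 fold changes of 0.39, 0.22 and -0.03. Of the intermediate filament genes near vimentin 4 of 7 were tested, with a median of -0.08, or -0.06 and 0.15 in the same fits.

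Reads on the loci of the miR-200 family, whose mature sequences are given above, were few. The host gene MIR200CHG held 23, 43 and 28 counts in C4-2B against 20, 14 and 36 in RC4-2B, with a log2 fold change of -0.38 (SE 0.41). MIR429 held 6, 7 and 13 counts in C4-2B against 10, 0 and 10 in RC4-2B. The median of these 2 tested loci was -0.35, but 0.09 without RC4-2B replicate 2, which held the fewest reads of both, and -0.21 with the GC correction. MIR200A held at most 9 counts in a library, MIR200B at most 6 and MIR141 at most 1, and MIR200C and MIR205 had 0. Libraries of this kind count the long transcripts of these loci and not the mature miRNAs.

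**Figure D5:**
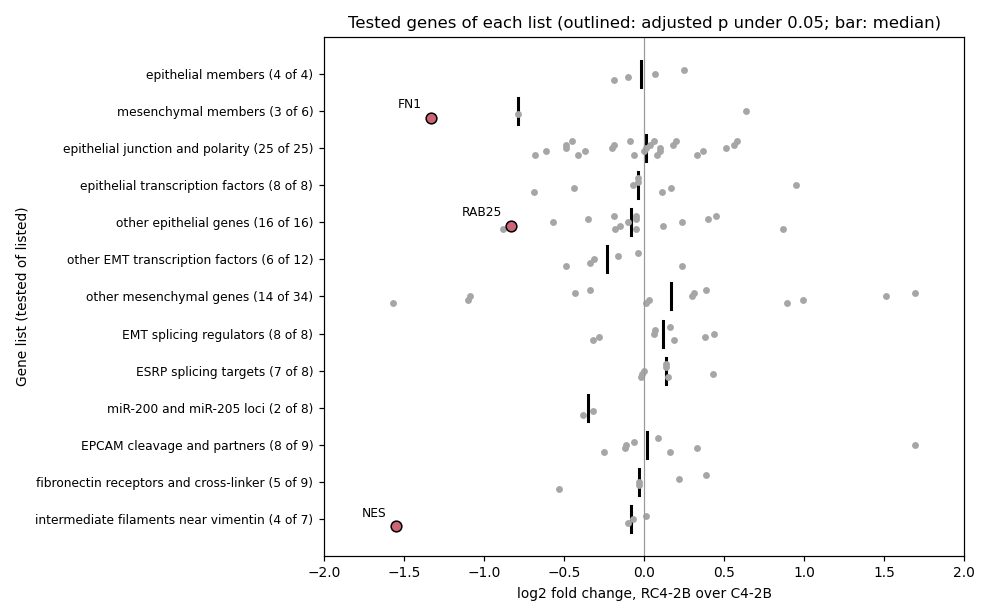
Log2 fold change of RC4-2B over C4-2B for the tested genes of the marker classes and of the 11 lists, with the number tested of those listed in brackets and the median as a bar. Outlined genes have an adjusted p under 0.05, FN1 at -1.33, RAB25 at -0.83 and NES at -1.55, and all other genes are grey.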

How the data were processed

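RNAseq libraries of C4-2B and RC4-2B (3 each) were analysed. The submitters' processing notes name STAR and GRCh38. The authors deposited raw counts per gene and FPKM values, which are those counts divided by gene length and a library total. The counting program, its use of strand and the annotation are not given in the sources used here. Counts were scaled by TMM, filtered by filterByExpr (minimum 10 counts) and compared by edgeR 4.0.16 (R 4.3.3) with the quasi-likelihood test, Benjamini-Hochberg adjustment and a threshold of 0.05. The fit was tested on simulated counts, which held no library set apart by GC content as RC4-2B replicate 2 is. CPM is TMM-scaled. The markers and gene lists were chosen with earlier results of these data known. Named genes are the markers, list genes past the threshold, CDH1, CDH2, SNAI1, GRHL2, OVOL2 and the 3 genes most like EPCAM and FN1, the markers of smallest p in each class. Other genes named in the text (those called only in an alternative, marker and list genes given as examples, and neighbours at the ends of a range) were chosen after their values were seen. Alternatives were DESeq2 1.42.0, other scalings, filters and prior counts, a robust dispersion prior, a replicate block, leaving out each library in turn, limma 3.58.1 on log2(FPKM + 1) or log2(FPKM + 0.1), and a GC offset (lowess span 0.2, GENCODE release 44).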

Additional observations from a re-analysis of the deposited data

How the results depend on the processing

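FN1 was lower in RC4-2B under all 19 alternatives. Its adjusted p was over 0.05 with the replicate block (log2 fold change -1.32, adjusted p = 0.067), with limma on log2(FPKM + 1) (-1.23), on log2(FPKM + 0.1) (-1.29) and without a filter (-1.23), and in 5 of the 6 fits without 1 library (range -1.58 to -1.07). The count of lower markers was 0 with the replicate block, with the 3 limma fits on FPKM and in 5 of the 6 fits without 1 library (range over the 6 fits 0 to 1), and 0 markers were higher in any of the 18 fits counted. EPCAM, ESRP2, VIM and SNAI2 kept their direction and an adjusted p over 0.05 in every alternative that tested them. ESRP1 turned with the GC correction (-0.07) and with both that and the block (-0.07), and lay between -0.04 (without RC4-2B replicate 2) and 0.12 with 1 library left out. OVOL1 turned likewise (0.08 and 0.07), with a range of -0.31 to 0.16, and OVOL2 (0.15 and 0.15), with a range of -0.15 to 0.04.

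Counts of list genes, 0 higher and 2 lower as reported, were 1 and 2 with upper-quartile scaling, 3 and 3 with DESeq2, 5 and 5 with no filter on low counts, 0 and 1 with the replicate block, 0 and 1 with limma on log2(FPKM + 0.1), and 0 and 0 with limma on log2(FPKM + 1) and no filter. With the GC correction they were 11 and 7, with the block as well 11 and 8, and with 1 library left out 0 to 13 and 0 to 10. Over all genes, 162 higher and 136 lower became 500 and 402 (DESeq2), 604 and 646 (no filter), 55 and 74 (replicate block), 657 and 490 (GC correction), 642 and 564 (GC correction and block), 46 and 58 (limma, log2(FPKM + 1)), 39 and 47 (log2(FPKM + 0.1)), and 13 and 23 (log2(FPKM + 1), no filter). With 1 library left out the ranges were 13 to 1000 and 31 to 925, with the highest counts without RC4-2B replicate 2. Fits without 1 library rest on fewer samples. The cause of the other shifts was not tested.

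Same-numbered libraries of the groups deviated together with correlations of 0.32, 0.18 and -0.069. The values for replicates 1 and 2 were the highest of all pairs between the groups, while C4-2B replicate 3 correlated best with RC4-2B replicate 2 (0.17). These values do not settle whether the numbers mark a pairing, and the block was kept as an alternative. With the block the adjusted p of RAB25 was 0.05 after rounding and that of CDH3 0.057, and neither was called.

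Genes at or under 3 counts in every library, such as ZEB1 and ZEB2, cannot show a difference below that floor at this depth.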
